A study of Rattus norvegicus with 17 samples.

Results

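Acta2, Vim, Cdh1 and Cdh2 encode 4 proteins used to follow mesenchymal and epithelial cells in scarring lung: smooth muscle actin, vimentin, epithelial cadherin and neural cadherin. The 4 genes were taken by their Ensembl rat identifiers (ENSRNOG00000058039, ENSRNOG00000018087, ENSRNOG00000020151 and ENSRNOG00000015602, in that order) from a table of 32753 genes, and all 4 were among the 15000 genes tested. The table gives identifiers only, and the symbols are those listed with the identifiers when the genes were chosen. The study sequenced mRNA of lung parenchyma from RjHan:WI rats, a Wistar stock. The control group received NaCl (6 libraries), the bleomycin group bleomycin at 1 mg per kg (5 libraries), and the treated group the same bleomycin dose together with BI1015550 at 2.5 mg per kg (6 libraries). Bleomycin is a cytotoxic antibiotic that injures the lung, and BI1015550, by the series title, inhibits PDE4B, an enzyme that breaks down cyclic AMP. The age and sex of the rats, the route and times of dosing and the number of animals behind the libraries do not appear in the labels used here. The p-values therefore measure the spread between libraries, which may in part be technical.

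In fibrosis, fibroblasts and related cells become myofibroblasts, which take up smooth muscle actin into contractile stress fibres and lay down matrix. Vimentin forms the intermediate filaments of mesenchymal cells and is also made by leukocytes and endothelium, so it is a broader marker than actin. Epithelial cadherin holds airway and alveolar epithelial cells together at adherens junctions. Neural cadherin does the same in mesenchymal, mesothelial, neural and cardiac cells, and a shift from the epithelial to the neural form is the classical cadherin switch of epithelial to mesenchymal transition. Smooth muscle actin is also abundant in the muscle of airways and vessels, which whole parenchyma contains. In such bulk tissue, fewer cells of a type and less RNA per cell cannot be told apart.

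The 250 bases before the annotated start of Acta2 and Vim are shown for the 2 of the 4 genes that had an entry in the promoter table used here, both of them called higher with bleomycin. They come from RefSeq on the rat build GRCr8, at chr1:241172504-241172753 on the minus strand for Acta2 and at chr17:81577011-81577260 on the plus strand for Vim. Capitals in Acta2 mark matches to the CArG box, the element bound by serum response factor, with 1 G or C among its central A and T bases, and the TATA element TATATAA. Capitals in Vim mark a CCAAT box, which is read on the opposite strand, and the element TATAAA, which begins 82 bases before the annotated start.
Acta2: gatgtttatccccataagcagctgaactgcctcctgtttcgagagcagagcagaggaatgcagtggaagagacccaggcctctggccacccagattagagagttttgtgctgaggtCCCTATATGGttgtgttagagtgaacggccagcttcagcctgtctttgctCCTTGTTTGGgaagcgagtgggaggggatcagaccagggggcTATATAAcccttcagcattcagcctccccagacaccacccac
Vim: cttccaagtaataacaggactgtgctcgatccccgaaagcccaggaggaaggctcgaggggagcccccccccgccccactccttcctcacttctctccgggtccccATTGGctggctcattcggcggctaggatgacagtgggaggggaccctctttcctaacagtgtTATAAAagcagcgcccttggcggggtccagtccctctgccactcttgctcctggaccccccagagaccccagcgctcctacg

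Both strands of this window were searched for each element. The Acta2 window held 2 CArG boxes of the substituted form, beginning 134 and 84 bases before the start. The Vim window held 0. Among the 33469 rat promoter windows of this length, 6.84% held at least 1 such box, and 1.5% held a CArG box without a substitution, which neither gene had here. The CCAAT box found in Vim was present in 34% of windows and its TATAAA in 12.9%, and the TATATAA of Acta2 in 3.42%. The cAMP response element TGACGTCA (1.59% of windows), the AP-1 element TGACTCA (4.05%) and the E-box form CACCTG (15.9%) matched in neither window. The general E-box CANNTG, found in 65.5% of windows, matched at 1 position in Acta2. These are matches of letters in a short window and show no binding.

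Total counts lay between 14609389 and 18462105 per library, and TMM factors, which correct library size for composition, between 0.955 and 1.05. The totals differed by group: 15919392 to 18462105 in controls, 15207791 to 16192209 with bleomycin and 14609389 to 15889091 in treated libraries. Every treated total thus lay below every control total. TMM factors of the bleomycin libraries were 0.955 to 0.990. Levels are given as CPM, the count scaled to the TMM-corrected library totals of the 15000 genes tested. These genes held 99.927% of all counts. CPM is not divided by transcript length, so levels are compared between libraries and not between genes. The compared groups share libraries: the control group enters 2 of the 3 comparisons, and so does each other group.

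**Figure D1:**
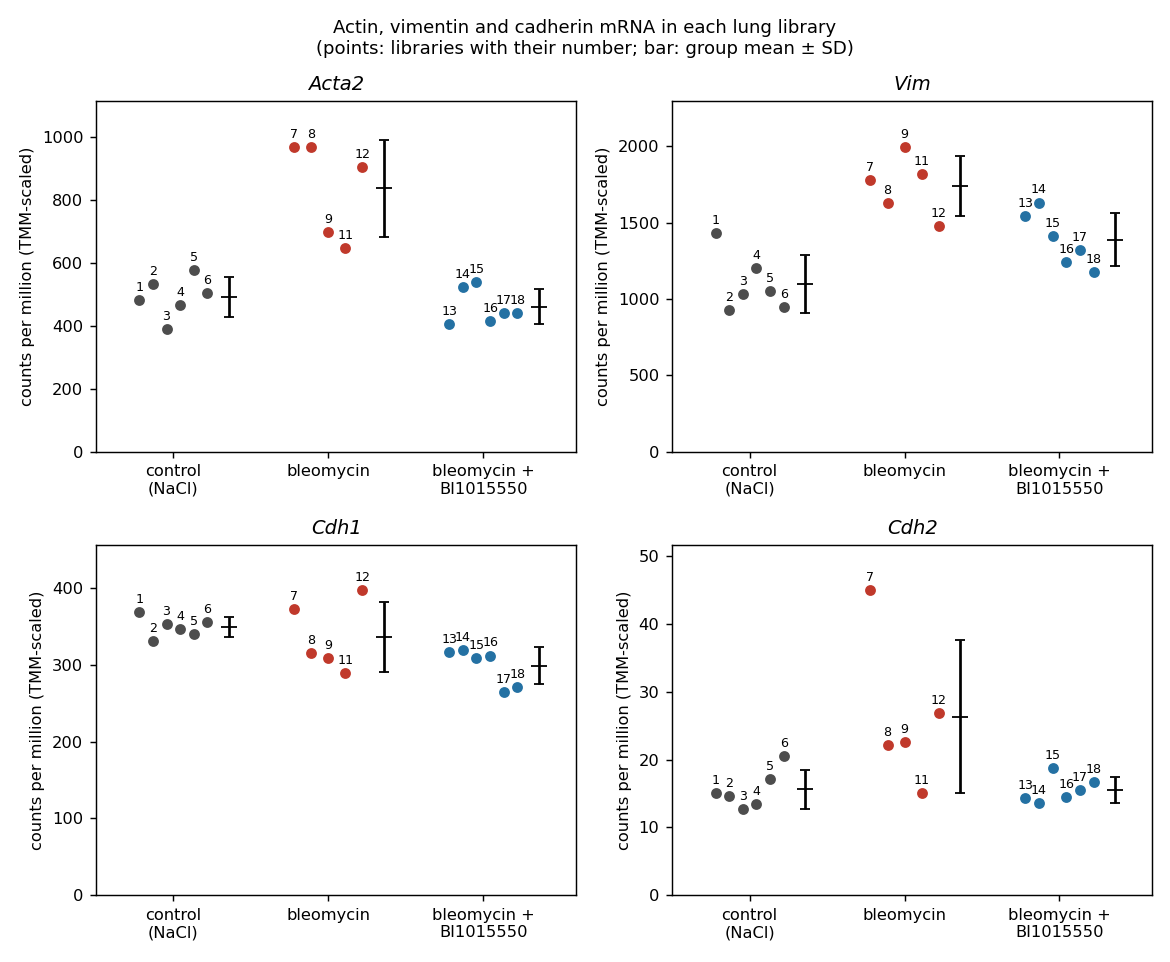
CPM (vertical axes, from 0) of the 4 genes in the 17 libraries of the 3 groups, each point a library with its number, with the group mean ± SD beside it. Acta2 shows the bleomycin libraries, at 647 to 970 CPM, above every other library, while Cdh2 is set apart in bleomycin library 7 at 44.9 CPM.

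Acta2, the myofibroblast and smooth muscle actin, was 1.70-fold higher with bleomycin than in controls and 1.82-fold lower in treated than in bleomycin lungs. Treated and control lungs differed by less than the spread between libraries. In controls its level was 483, 534, 391, 466, 576 and 503 CPM in libraries 1 to 6. In bleomycin libraries 7, 8, 9, 11 and 12 it was 970, 969, 699, 647 and 905 CPM. In treated libraries 13 to 18 it was 406, 523, 540, 415, 442 and 441 CPM. Every bleomycin library lay above every control and every treated library, and every treated library lay inside the control range.

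The mean Acta2 level was 492 ± 63.0 CPM for the 6 control libraries (± SD), 838 ± 154 CPM for the 5 bleomycin libraries and 461 ± 56.7 CPM for the 6 treated ones. Bleomycin against control had an edgeR adjusted p of 0.000173 at a log2 fold change of 0.77 (SE 0.124), above that of 92.1% of all genes tested. Treated against bleomycin gave -0.86 (SE 0.125, edgeR adjusted p = 0.000521), and only 3.88% of genes tested had a lower value. Against control the treated value was -0.09, with a 95% interval of -0.34 to 0.16 (edgeR adjusted p = 0.698). Muscle actins are close relatives, and how reads shared between such genes were counted is not stated in the labels used here, so the Acta2 values carry that limit.

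Vim, the intermediate filament protein of mesenchymal cells, rose 1.58-fold with bleomycin and took an intermediate level in treated lungs that passed neither test. Its control levels in libraries 1 to 6 were 1431, 929, 1031, 1202, 1053 and 948 CPM. The bleomycin libraries 7, 8, 9, 11 and 12 held 1778, 1627, 1997, 1816 and 1477 CPM. Treated libraries 13 to 18 held 1544, 1631, 1414, 1242, 1323 and 1176 CPM. No bleomycin library fell into the control range, whose top was control library 1 alone. Of the treated libraries, 4 lay below every bleomycin library and 2, libraries 13 and 14, lay above every control and inside the bleomycin range.

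Vim averaged 1099 ± 190 CPM over the 6 control libraries (± SD), 1739 ± 197 CPM over the 5 bleomycin libraries and 1388 ± 176 CPM over the 6 treated ones. Bleomycin against control gave 0.66 on the log2 scale (SE 0.121, edgeR adjusted p = 0.000467). Treated lungs lay below bleomycin by a log2 difference of -0.33, with a 95% interval of -0.58 to -0.07 before adjustment and an edgeR adjusted p of 0.0538. They lay above control by 0.34, with an interval of 0.09 to 0.58 and an edgeR adjusted p of 0.0804, and all 6 treated libraries were above the control mean. Both values sit near the threshold of 0.05. Of the 25 alternatives run for each, 20 against bleomycin and 22 against control left Vim uncalled, with an edgeR adjusted p of up to 0.133 (without bleomycin library 9) and 0.199 (without treated libraries 13 and 17). DESeq2 called Vim in both comparisons (adjusted p = 0.0296 against bleomycin and 0.0348 against control), and so did limma voom with quality weights (0.0176 and 0.00414) and edgeR without control library 1 (0.029 and 0.0203). Without bleomycin library 12 or treated library 14 it was called against bleomycin as well (edgeR adjusted p = 0.0406 and 0.0354).

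**Figure D2:**
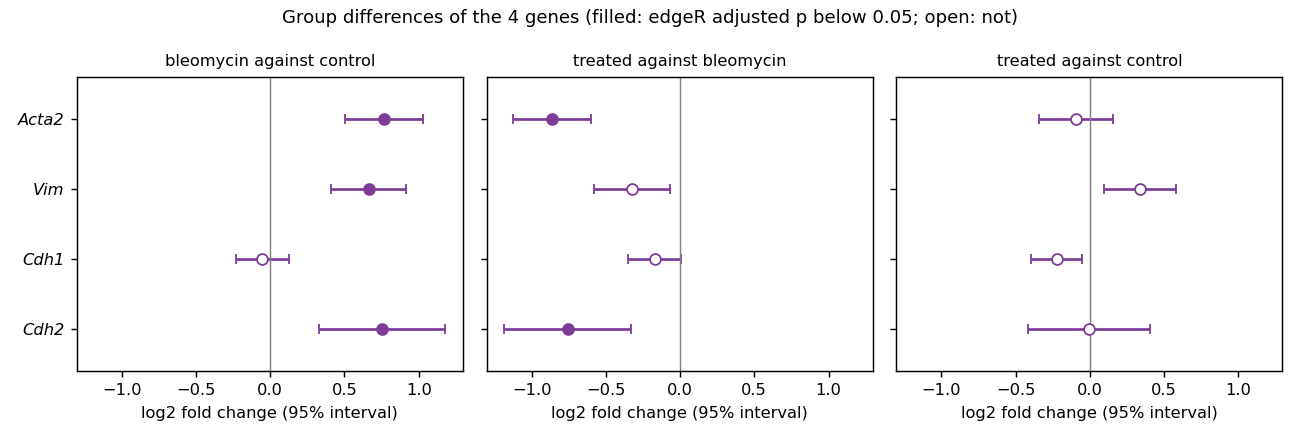
Log2 fold changes (horizontal axes) of the 4 genes in the 3 comparisons with 95% intervals that are not adjusted for the number of genes; filled points had an edgeR adjusted p below 0.05. Acta2 and Cdh2 are filled on the right of 0 with bleomycin and on the left of 0 for treated against bleomycin, and no gene is filled for treated against control.

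Cdh1, the adhesion protein of epithelial junctions, did not pass the test with bleomycin and had its lowest mean in treated lungs. In control libraries 1 to 6 it stood at 368, 331, 353, 346, 340 and 355 CPM. In bleomycin libraries 7, 8, 9, 11 and 12 it stood at 372, 315, 308, 289 and 397 CPM. In treated libraries 13 to 18 it stood at 316, 319, 309, 312, 265 and 271 CPM. The controls were close together, the bleomycin libraries spread to both sides of them (2 above every control and 3 below), and all 6 treated libraries lay below every control.

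The mean Cdh1 level was 349 ± 12.98 CPM among the 6 controls (± SD), 336 ± 45.7 CPM among the 5 bleomycin libraries and 299 ± 24.0 CPM among the 6 treated libraries. Bleomycin against control gave a log2 difference of -0.05, with a 95% interval of -0.23 to 0.12 (edgeR adjusted p = 0.649). Treated against bleomycin gave -0.17 (interval -0.35 to 0.01, edgeR adjusted p = 0.135). Treated against control gave -0.22 (SE 0.0805, edgeR adjusted p = 0.0936), a value 1.17-fold below control that missed the threshold although the ranges were separate. It passed with DESeq2 (adjusted p = 0.0486), with limma voom (0.0303) and with only those 2 groups in the edgeR fit (0.0403), and missed it in the other 22 alternatives, with an adjusted p of up to 0.219. Separate ranges of treated and control libraries were found for 5.59% of the genes tested, and Cdh1 was the only 1 of the 4 genes with them in this comparison.

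Cdh2, the cadherin of mesenchymal and mesothelial junctions, rose 1.68-fold with bleomycin and was 1.69-fold lower in treated than in bleomycin lungs, but its size in both comparisons rested in part on 1 library. Control libraries 1 to 6 held 15.1, 14.6, 12.8, 13.5, 17.2 and 20.5 CPM. Bleomycin libraries 7, 8, 9, 11 and 12 held 44.9, 22.2, 22.6, 15.01 and 26.9 CPM. Treated libraries 13 to 18 held 14.3, 13.6, 18.8, 14.5, 15.6 and 16.6 CPM. Of the bleomycin libraries, 4 lay above every control and every treated library, while library 11 sat inside both ranges.

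The Cdh2 mean was 15.6 ± 2.85 CPM among the 6 controls (± SD), 26.3 ± 11.2 CPM among the 5 bleomycin libraries and 15.6 ± 1.92 CPM among the 6 treated libraries. Bleomycin against control gave 0.75 on the log2 scale (SE 0.203, edgeR adjusted p = 0.00766), and 0.47 without bleomycin library 7 (adjusted p = 0.0263). Treated against bleomycin gave -0.76 (SE 0.203, edgeR adjusted p = 0.012), and -0.48 without the same library (adjusted p = 0.036). Without treated libraries 13 and 17 together, a pair picked with earlier results of these data known, the second call was lost (-0.73, edgeR adjusted p = 0.0582). Treated against control was -0.004, with a 95% interval of -0.42 to 0.41 (edgeR adjusted p = 0.993), so changes of up to about those sizes in either direction lie within the error.

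Cdh2 was read from 194 to 686 counts per library and the other 3 genes from 3966 to 29958. Counting error alone gives Cdh2 a coefficient of variation of 4.97% to 6.50% at the mean counts of the groups, against an observed 18.2% in controls, 42.7% with bleomycin and 12.3% in treated lungs. For Cdh1 counting gives 1.296% in controls against an observed 3.72%, and 1.39% with bleomycin against 13.6%. In treated lungs the Cdh1 values were 1.49% and 8.05%, so the spread between libraries was larger than counting error for both cadherins in every group.

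Of the 4 genes, 3 were called higher with bleomycin than in controls and 0 lower, where 20.2% of the 15000 genes tested were called higher and 18% lower. CPM ranges did not overlap for 2 of the 4, against 18.1% of all genes tested. In treated against bleomycin lungs 2 were called lower and 0 higher, against 15.7% and 12.1% of all genes. Scaling by total counts alone turned the latter split around, to 2349 higher and 1870 lower genes from 1813 and 2350. Both calls stayed in place. The bleomycin against control split turned as well, from 3032 higher and 2706 lower genes to 2502 and 3308. Upper quartile scaling gave 2793 and 2892 for it, and the 3 calls stayed under both scalings. Ranges of treated and bleomycin libraries were separate for 1 of the 4, Acta2, against 14.1% of all genes. In treated against control lungs 0 of the 4 passed, where 3.92% of genes were called higher and 4.47% lower. In that comparison Vim and Cdh1 had an unadjusted p of 0.00954 and 0.0122, and DESeq2 and limma voom each called both. The median log2 fold change of the 4 genes was 0.71, -0.54 and -0.05 in the 3 comparisons. That of all genes tested was -0.01, -0.003 and 0.004. The medians of all genes depend on the scaling and were -0.06, 0.05 and 0.0008 with total counts. The 4 genes were chosen with earlier results of these data known, so the medians were not tested against each other.

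**Figure D3:**
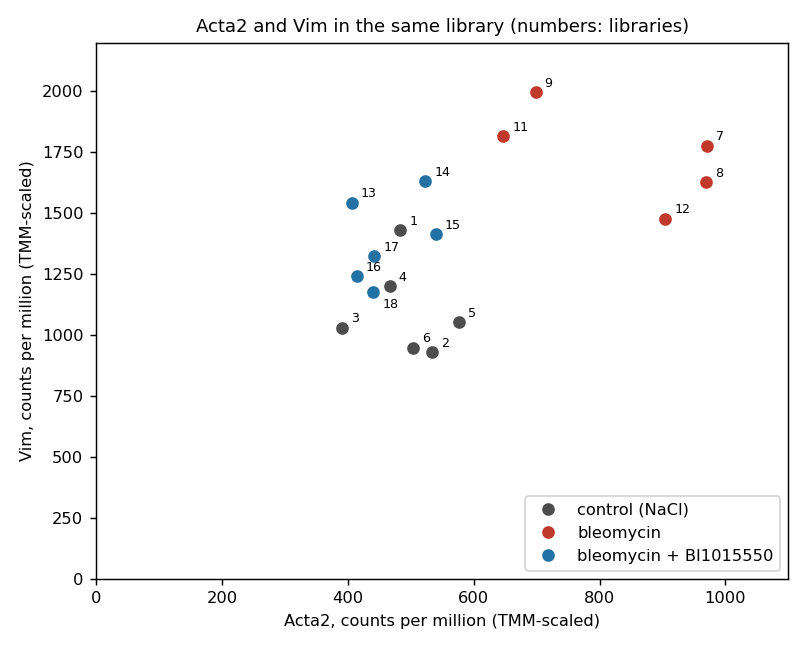
Acta2 (horizontal axis) against Vim (vertical axis) in CPM for the 17 libraries, coloured by group and numbered. The bleomycin libraries split into 7, 8 and 12, with 905 to 970 CPM of Acta2, and 9 and 11, with 699 and 647 CPM of Acta2 and the highest Vim of all libraries.

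Within the bleomycin group the 4 genes did not rank the libraries alike. Libraries 9 and 11 had the lowest Acta2 of the group and the highest Vim, at 1997 and 1816 CPM. Library 12 had the lowest Vim of the group, 1477 CPM, with 905 CPM of Acta2 and the highest Cdh1 of all libraries. Library 7 was highest in the group for Acta2 and Cdh2 and second for Cdh1, and library 11 was lowest for Acta2, Cdh1 and Cdh2. With 5 libraries these orders are a description and were not tested. Markers of smooth muscle, epithelium, leukocytes, endothelium, mesothelium and cardiac muscle could not be looked up without gene names, so the part of cell composition in these orders was not tested, and neither could the labelled tissue be checked against its markers.

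The ratio of 2 counts within a library does not depend on how the library is scaled. It is not corrected for transcript length, so only its differences between libraries are read. The log2 ratio of Cdh2 to Cdh1 counts, a readout of the balance of the cadherins, was -4.50 ± 0.250 over the 6 control libraries (± SD), -3.76 ± 0.442 over the 5 bleomycin libraries and -4.27 ± 0.242 over the 6 treated libraries. In plain counts, a bleomycin library held between 8.29 and 19.3 Cdh1 reads for each Cdh2 read, a control library between 17.3 and 27.6, and a treated library between 16.3 and 23.5. The ratio was 1.67-fold higher with bleomycin than in controls, and 1.42-fold lower in treated than in bleomycin lungs. Without bleomycin library 7 the log2 differences behind these folds shrank from 0.74 to 0.56 and from -0.51 to -0.33. The treated mean was above the control mean by 0.23 on the log2 scale (1.18-fold), and by 0.18 to 0.31 without single libraries. In that comparison the log2 fold change was -0.004 for Cdh2 and -0.22 for Cdh1. Neither gene was called (edgeR adjusted p = 0.993 and 0.0936). The treated and control ranges of the ratio overlapped. Bleomycin library 11, at -4.27, lay within both other ranges, and the remaining 4 bleomycin libraries lay above them. The shift with bleomycin came with a Cdh2 level that rose, while the Cdh1 level differed by less than its spread.

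**Figure D4:**
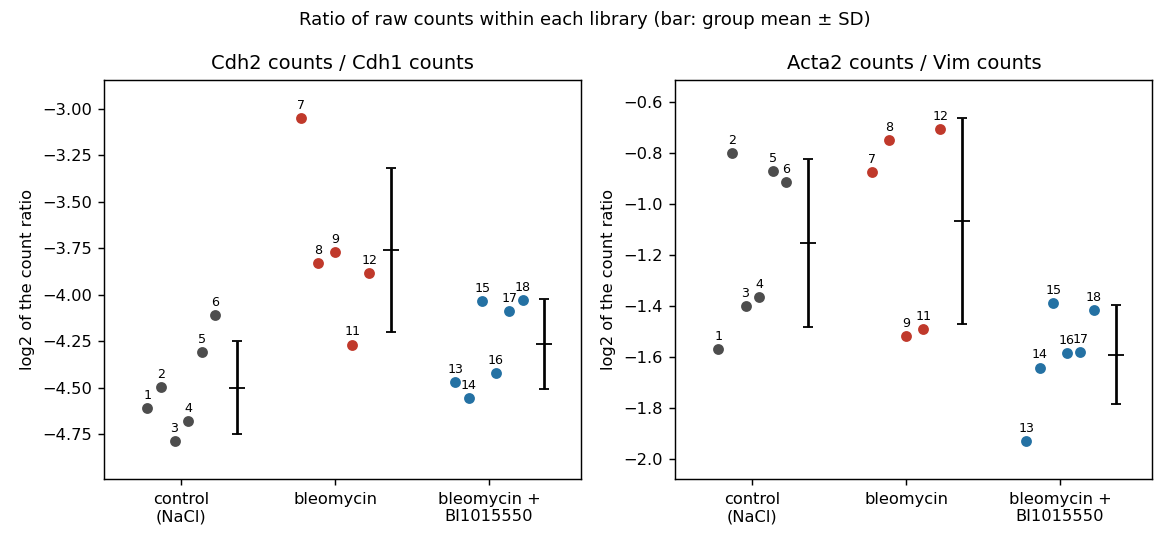
Log2 ratio of raw counts (vertical axes, which do not start at 0) of Cdh2 to Cdh1 and of Acta2 to Vim in each of the 17 libraries, with the group mean ± SD. Bleomycin library 7 is highest for the cadherins at -3.05, and the treated libraries lie low for Acta2 to Vim, from -1.93 to -1.39.

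The log2 ratio of Acta2 to Vim counts averaged -1.15 ± 0.329 over the 6 control libraries (± SD), -1.07 ± 0.403 over the 5 bleomycin libraries and -1.59 ± 0.193 over the 6 treated libraries. It differed by 0.08 between bleomycin and control lungs, less than either SD, and its sign turned without bleomycin library 12 (-0.005). The treated mean minus the bleomycin mean was -0.52, and minus the control mean it was -0.44. The ranges overlapped in both cases: control libraries 1 and 3 and bleomycin libraries 9 and 11 lay inside the treated range. No p is given for either ratio, since the genes were chosen with results of these data known.

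The gene whose profile over the 17 libraries was most like each of the 4 was sought among 11721 other genes with a mean of at least 5 CPM. Likeness was the root mean square difference of log2 CPM after each profile was centred on its own mean. For Acta2 it was ENSRNOG00000027736, with a difference of 0.139 against a median of 0.473 over all genes compared. That gene stood at 75.3 ± 8.11 CPM (± SD) in the 6 controls, 138 ± 33.0 CPM in the 5 bleomycin libraries and 73.3 ± 8.56 CPM in the 6 treated libraries. For Vim it was ENSRNOG00000033623, with a difference of 0.123, at 14.4 ± 1.89, 20.4 ± 2.10 and 16.7 ± 1.39 CPM in the same groups. Like Vim it was intermediate in treated lungs, which follows from its choice by likeness to Vim in these same libraries. Its own value against bleomycin (log2 fold change -0.29, edgeR adjusted p = 0.0399) is therefore no separate evidence on Vim. For Cdh1 it was ENSRNOG00000046502, with a difference of 0.0967, at 82.9 ± 2.68, 78.4 ± 7.93 and 73.6 ± 2.11 CPM. The next gene was nearly as close to Cdh1, with a difference of 0.0969. For Cdh2 the smallest difference was 0.193. The medians over all genes compared were 0.395 for Vim, 0.286 for Cdh1 and 0.496 for Cdh2. The root mean square spread of each gene around its own mean was 0.416 for Acta2, 0.324 for Vim, 0.153 for Cdh1 and 0.443 for Cdh2. A gene with little spread gives small differences, so the matches are not ranked between the 4 genes. The group levels of the matches for Acta2 and Cdh1 also follow from their choice by likeness, and are no separate evidence on those genes. The matched genes are given by identifier because the names are not paired with them here.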

How the data were processed

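The deposited file is 1 table of raw read counts (whole numbers) for Ensembl rat genes, 1 column for each of the 17 libraries. Per the submitters' processing notes, the tools were featureCounts 1.5.1, RSEM 1.3.0, FastQC 0.11.5, STAR (2.5.2, 2.5.2b) and bcl2fastq 2.20.0.422, and the builds Rnor_6.0, hg38 and GRCh38, without roles. Strand use and annotation release are not stated in the labels used here, so reads of overlapping, antisense or near-identical genes may be shared or lost.

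The analysis used edgeR 4.0.16 under R 4.3.3. Genes passing filterByExpr by group (15000) were TMM-scaled, and a quasi-likelihood model of the 3 groups was fitted to all 17 libraries. P-values of the F test were adjusted over all genes tested (Benjamini-Hochberg), with calls below 0.05. SE is the log2 fold change divided by the square root of F. Log2 CPM used a prior count of 2. The script was tested on simulated data. Libraries of a group differed by more than counting noise (chi-square of at least 11.6 per gene). Alternatives were DESeq2 1.42.0, limma 3.58.1, other scalings, no filter, fits of 2 groups and fits without single libraries.

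The 4 genes, the lists and the alternatives were chosen with earlier results of these data known. The rule for named genes was the 4 genes and, for each, the most similar profile, with at most 2 higher and 2 lower genes printed. Lists of contractile, mesenchymal and junction genes and of cell type markers, set by symbol, were not analysed here, because 0 identifiers matched the RefSeq gene table (GRCr8). Promoters of 2 of the 4 genes matched by symbol.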

Additional observations from a re-analysis of the deposited data

How the results depend on the processing

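Acta2 and Cdh2 kept the direction of their called differences, and Vim that of its rise with bleomycin, under the 25 alternatives run for each. Some of these only left out libraries of the group that was not compared. They hardly move a log2 fold change and so say little about its direction. Vim in treated against bleomycin lungs (-0.33) passed the threshold with DESeq2 (-0.33) and limma voom (-0.39), and lay between -0.38 and -0.27 without single libraries. In treated against control lungs Vim (0.34) passed with DESeq2 (0.34) and limma voom (0.45), at 0.29 to 0.43 without single libraries, and Cdh1 (-0.22) passed with DESeq2 (-0.22), limma voom (-0.22) and only the 2 groups fitted (-0.23). Cdh2 in treated against bleomycin lungs lost its call without treated libraries 13 and 17 (-0.73), a fit that called 1 of the 4 genes, and 1929 genes in all where the fit of all libraries called 4163. The 4 genes gave 2 calls for treated against control with DESeq2, 2 with limma voom and 1 with only those 2 groups, and 0 to 1 without single libraries. Cdh2 in treated against control (-0.004) turned sign without those 2 treated libraries (0.025) and ranged from -0.066 to 0.089 without single libraries. The Acta2 to Vim ratio with bleomycin ranged from -0.0050 to 0.20 without single libraries. Genes called for treated against control (1259) numbered 2546 with limma voom, 794 and 825 without control libraries 2 and 3, and 821 without treated library 15. The causes of these changes were not tested. No paired analysis was possible because no replicate number occurs in more than 1 group. Cdh2 had the fewest reads of the 4 genes and so the largest counting error, but its spread between libraries was larger than that error in every group.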
